A study of Mus musculus with 30 samples.

Results

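The small leucine-rich proteoglycans (SLRPs) measured here are 10 of the 43629 genes counted in callus RNA, chosen by name as members of the family: Bgn, Dcn, Aspn, Lum, Fmod, Omd, Prelp, Ogn, Epyc and Chad. Their mRNA was followed in 30 calli of male C57BL/6J mice that were 20 weeks old when the right tibia was cut in an open osteotomy and held with an intramedullary nail. Calli of 12 mice on lean diet were taken 3, 5, 7 or 10 days after fracture (d3 to d10), and those of 18 mice with diet-induced obesity (DIO, on high-fat diet) at these times and also after 14 and 21 days. Each group held 3 mice and each library came from the callus of 1 mouse, so replicates are separate animals. Strain, sex, fracture and nail were the same in both diets, and lean mice later than d10 were not analysed here. The comparisons ask how the members' mRNA changed during callus formation in each diet and whether it differed between diets.

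SLRPs are secreted proteins whose leucine-rich repeats bind collagen fibrils, and most of them carry glycosaminoglycan chains. In connective tissue they are known to limit how thick fibrils grow and how they pack, and several of them hold growth factors of the TGF-beta and BMP families in the matrix. A fracture callus passes through granulation tissue, cartilage (the soft callus) and woven bone, and these tissues are known to differ in the SLRPs they make. Bgn and Dcn carry chondroitin or dermatan sulfate chains, Lum, Fmod, Omd and Prelp belong to the keratan sulfate class, and Aspn, Ogn, Epyc and Chad differ from these in their chains or their domains.

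Most members lie next to each other in the mouse genome (GRCm38, GENCODE M21 annotation). Dcn (ENSMUSG00000019929, chromosome 10, 97479609 to 97518143), Lum (97565128 to 97572703) and Epyc (97644068 to 97682454) share chromosome 10, with the family gene Kera between Lum and Epyc. Aspn (49544443 to 49567565), Omd (49582462 to 49592822) and Ogn (49608046 to 49624501) follow each other on chromosome 13, with gaps of 14.9 and 15.2 kb. No annotated protein-coding gene lies wholly within these gaps, but Cenpp, on the opposite strand, overlaps the span of each of these members. Prelp (133910304 to 133921414, minus strand) and Fmod (134037254 to 134048277, plus strand) lie 115.8 kb apart on chromosome 1. Bgn (X, 73483602 to 73495933) and Chad (11, 94565047 to 94569127) lie apart from other members, and Acsf2 overlaps the span of Chad without sharing exons. Exons of other genes on the opposite strand cover 40.6% of the exon length of Epyc and 9.7% of that of Prelp. If strand was not used in counting, reads from these stretches would be ambiguous between genes.

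Aspn with Ogn and Fmod with Prelp were the pairs of members whose levels over the 10 groups were most alike. Each pair also lies close on a chromosome, with Omd between Aspn and Ogn. Of the 10 members, 8 have a promoter in the RefSeq table for GRCm38.p6, and for this reason those of these 4 are printed. Each runs from 250 bases before the start to 50 bases after it, 5′ to 3′ on the gene's own strand. Capitals mark 3 motifs on either strand: TATAAA, the usual form of the box that positions transcription starts, then TGTGGT, which RUNX proteins bind, and ACAAT, the core of sites for SOX proteins. The coordinates are chr1:134037004-134037303 (plus) for Fmod, chr1:133921352-133921651 (minus) for Prelp, chr13:49544193-49544492 (plus) for Aspn and chr13:49607765-49608064 (plus) for Ogn.
Fmod: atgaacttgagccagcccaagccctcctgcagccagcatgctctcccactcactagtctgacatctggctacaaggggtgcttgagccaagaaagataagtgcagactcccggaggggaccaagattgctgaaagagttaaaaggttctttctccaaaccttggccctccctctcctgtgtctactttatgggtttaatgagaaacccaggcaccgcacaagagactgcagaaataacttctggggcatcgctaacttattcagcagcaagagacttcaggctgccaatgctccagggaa
Prelp: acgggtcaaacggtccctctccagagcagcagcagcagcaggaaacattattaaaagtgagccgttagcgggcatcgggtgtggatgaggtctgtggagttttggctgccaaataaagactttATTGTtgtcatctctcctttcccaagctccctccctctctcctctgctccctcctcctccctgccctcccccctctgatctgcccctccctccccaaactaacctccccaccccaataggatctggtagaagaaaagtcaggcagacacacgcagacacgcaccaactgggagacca
Aspn: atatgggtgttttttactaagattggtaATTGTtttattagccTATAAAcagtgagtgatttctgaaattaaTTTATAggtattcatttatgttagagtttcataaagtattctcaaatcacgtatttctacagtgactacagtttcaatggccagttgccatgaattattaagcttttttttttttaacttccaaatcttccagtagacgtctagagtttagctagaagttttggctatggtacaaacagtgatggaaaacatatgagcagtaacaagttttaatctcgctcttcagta
Ogn: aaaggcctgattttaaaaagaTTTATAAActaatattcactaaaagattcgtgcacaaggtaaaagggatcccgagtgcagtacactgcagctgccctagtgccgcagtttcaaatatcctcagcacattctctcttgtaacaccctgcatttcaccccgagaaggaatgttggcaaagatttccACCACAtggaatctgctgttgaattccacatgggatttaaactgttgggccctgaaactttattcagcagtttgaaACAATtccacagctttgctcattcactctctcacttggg
Fmod held none of these letters, Prelp held the SOX letters once (first base at -127, counted from the start), and Aspn held the first motif at -207 and -178 and the SOX letters at -222. Ogn held 2 overlapping matches to the first motif (-229 and -227), the RUNX letters at -65 and the SOX letters at base 12 of the transcript. Of all 32817 promoters of this length, 13.6% held the first motif, 16.8% the RUNX letters and 31% the SOX letters. The matches to the first motif, at -178 or further from the start, are matches of letters only and do not show a working box. No binding was measured here.

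Between 13247122 and 26365620 reads per library were counted on genes (median 16854427), and the members took 0.186% to 1.03% of them. Markers of cartilage, hypertrophic cartilage, bone, fibrous tissue, muscle, leukocytes, erythroid cells, fat and vessels were all present, with no listed marker gene at 0 in any group. These are bulk samples, so fewer cells of a type and less RNA per cell cannot be told apart. The callus of lean d10 mouse 1 stood apart from the other lean d10 calli: its 12 chondrocyte markers summed to 81843 CPM (counts scaled to library size with TMM factors) against 18542 and 15263 CPM, and its 10 skeletal muscle markers to 1255 CPM against 18318 and 12803 CPM. The calli of DIO d21 also differed among themselves, with muscle markers at 463, 16435 and 2926 CPM in mice 1, 2 and 3.

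**Figure D1:**
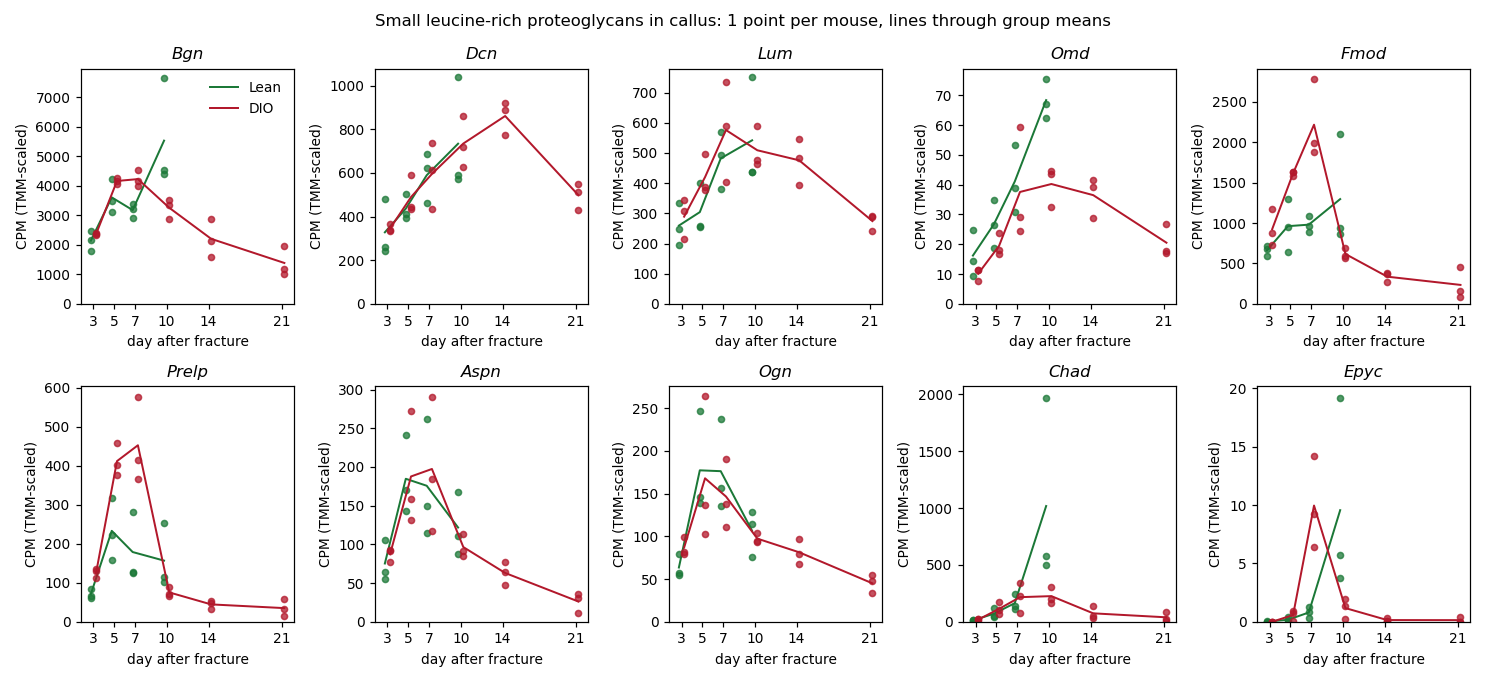
CPM of each member (vertical axes, different scales) by day after fracture, 1 point per mouse, green for lean and red for DIO, with lines through the means of 3 mice. In DIO mice Fmod lay between 1883 and 2779 CPM on d7 and between 568 and 693 CPM on d10, while Dcn lay between 437 and 738 CPM on d7 and between 626 and 861 CPM on d10.

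Per kilobase of exon (RPKM), Bgn was the highest member in all 10 groups. Bgn, which binds collagen and signals to innate immune cells when released, measured 351 ± 56.9 RPKM (mean ± SD, n = 3) in lean d3 calli and 907 ± 300 RPKM in lean d10 calli. The second place went to Fmod, a fibril-binding SLRP abundant in tendon and cartilage, on lean d3, d5 and d7 and on DIO d3, d5 and d7. On lean d10 it went to Chad (606 ± 492 RPKM). The values of the first and second member overlapped between mice on lean d10 and on DIO d7, where Bgn measured 693 ± 47.6 and Fmod 671 ± 148 RPKM. On DIO d10, d14 and d21 the second place went to Lum, a member needed for regular fibrils in cornea and skin, with 208 ± 28.2, 194 ± 31.3 and 112 ± 11 RPKM. Epyc, made in growth plate cartilage, was the lowest member in every group and did not pass 3.89 ± 1.55 RPKM (DIO d7). Neighbours in the middle of the order mostly overlapped between mice. On lean d5, for example, the mean levels of Aspn, Dcn, Ogn and Prelp lay between 64.4 and 78.5 RPKM, and each overlapped with the next. When the longest transcript was taken as the length instead, the order was the same in 7 of the 10 groups and 8 of 10 ranks were kept in lean d5, DIO d7 and DIO d10. With this length Bgn overlapped with the second member neither on lean d10 nor on DIO d7 (Bgn 1586 ± 109 and Fmod 711 ± 157 RPKM).

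In lean mice 7 of the 10 members differed between days over d3 to d10 (all but Dcn, Fmod and Aspn), beside 19% of all genes tested. Lum was still called in 5, Prelp in 4 and Ogn in 11 of the 12 fits with a mouse left out, and the other 4 in each. Between the first and the last of these days 8 of the 10 members rose and the other two, Aspn and Ogn, did not pass the test. Across all genes, 29.3% were called between d10 and d3 and 15.2% were called higher (edgeR quasi-likelihood test, Benjamini-Hochberg adjusted p under 0.05). The median log2 fold change was 1.19 over the 10 members and 0.023 over all genes tested. Chad, a cartilage member that binds collagen and an integrin of chondrocytes, had the largest rise of the members with more than a few counts on d3. It measured 5.99, 14.9 and 13.3 CPM in lean d3 mice 1, 2 and 3 and 1971, 582 and 500 CPM on d10, and every d10 callus lay above every d3 callus. This was a 91.2-fold rise (log2 fold change 6.51 ± 0.73 SE, edgeR adjusted p = 0.000186), and without lean d10 mouse 1 the log2 fold change of Chad was 5.60 (adjusted p = 0.000109). Epyc went from a single count over the 3 lean d3 calli to 307, 85 and 63 counts on d10. The ratio was 620, with a counting interval of 111 to 24538 (edgeR adjusted p = 0.000612). Counting intervals of Epyc, here and below, pool the mice of a group and hold no spread between them.

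Omd, also called osteoadherin and known from mineralized matrix, also rose in lean mice. It measured 9.43, 14.3 and 24.9 CPM on d3 and 75.6, 67.2 and 62.4 CPM on d10, with no overlap and with lean d10 mouse 1 close to the other d10 mice. The rise was 4.31-fold (log2 2.11 ± 0.34, edgeR adjusted p = 0.00136). Bgn measured 2165, 1781 and 2475 CPM on lean d3 and 7643, 4407 and 4547 CPM on d10, again with no overlap. It rose 2.65-fold (log2 1.40 ± 0.25, edgeR adjusted p = 0.00222).

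Dcn and Lum, the chromosome 10 neighbours, rose by similar amounts in lean mice. Dcn, a regulator of fibril diameter that binds TGF-beta, rose 2.29-fold from d3 to d10 (log2 1.19 ± 0.30, edgeR adjusted p = 0.0124), and Lum rose 2.13-fold (log2 1.09 ± 0.28, adjusted p = 0.0131). By the same edgeR test Fmod rose 2.01-fold (log2 1.01 ± 0.33, adjusted p = 0.0397) and Prelp 2.27-fold (log2 1.18 ± 0.40, adjusted p = 0.0446). Fmod was still called in 4 and Prelp in 6 of the 12 fits with a mouse left out: without lean d10 mouse 1 the edgeR log2 fold changes were 0.48 for Fmod (adjusted p = 0.184) and 0.65 for Prelp (adjusted p = 0.202). With all 30 libraries in 1 fit the call of Fmod was also lost (edgeR adjusted p = 0.0653). The calls of Bgn, Omd, Epyc and Chad held with each of the 12 lean mice left out in turn, while those of Dcn and Lum were lost without d3 mouse 1 or 2, with adjusted p up to 0.0582 for Dcn and 0.0562 for Lum. Over the same days all 12 chondrocyte markers rose, with summed levels of 1049 to 1653 CPM on d3 and 15263 to 81843 CPM on d10, as did 8 of 10 osteoblast and osteocyte markers, while 6 of 10 leukocyte markers fell and 2 rose, and 3 of 8 tendon and fibrous markers fell and 1 rose. Their part in the members' changes was not tested.

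Between neighbouring lean days fewer members were called. From d3 to d5 none of the 10 members passed the edgeR test, beside 0.449% of all genes. At an unadjusted p under 0.05 there were 6 members, and DESeq2 called 5 (Bgn, Ogn, Prelp, Aspn and Chad). The same 5 members were higher in every d5 callus than in every d3 callus, as were 11.9% of all genes. On simulated counts, drawn with edgeR's own estimates of spread, a larger share of DESeq2 than of edgeR calls was false. That setting may favour edgeR, and DESeq2 calls here and below are given with this caution. Ogn, a member also known as mimecan, came nearest to the threshold: it measured 54.4, 57.2 and 78.9 CPM on d3 and 247, 146 and 139 CPM on d5 (edgeR adjusted p = 0.0506). From d5 to d7 no member and none of the 16471 genes tested was called by edgeR, with 2 members and 926 genes at an unadjusted p under 0.05, and DESeq2 called no member. From d7 to d10 Chad and Epyc rose, beside 2.73% of all genes called and 1.09% called higher. Chad rose 6.29-fold (log2 2.65 ± 0.60, edgeR adjusted p = 0.0437) and Epyc went from 14, 5 and 22 counts to 307, 85 and 63 counts (ratio 12, counting interval 8.69 to 16.9, adjusted p = 0.0405). Without lean d10 mouse 1 neither was called. The edgeR log2 fold changes were then 1.75 for Chad (adjusted p = 0.112) and 2.59 for Epyc (adjusted p = 0.126). Chad was still called in 3 and Epyc in 5 of the 12 fits with a mouse left out.

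In DIO mice all 10 members differed between days over d3 to d21, beside 59.1% of all genes, and each of the 10 calls held with any of the 18 mice left out. From d3 to d5 all 10 members were higher in every d5 callus than in every d3 callus, beside 14.1% of all genes. Prelp alone passed the edgeR test there, beside 1.68% of all genes called and 1.39% called higher. At an unadjusted p under 0.05 there were 9 members, and DESeq2 called 5 (Bgn, Ogn, Prelp, Epyc and Chad). Prelp, a member with a heparin-binding end that anchors collagen to basement membranes, measured 134, 111 and 130 CPM on DIO d3, then 402, 458 and 375 CPM on d5. The groups did not overlap, and the rise was 3.29-fold (log2 1.72 ± 0.34, edgeR adjusted p = 0.013). This call was lost without DIO d3 mouse 1 or 2, with an adjusted p of up to 0.0734. Epyc had 0 counts in all 3 DIO d3 calli and 16, 16 and 1 counts on d5, which is 11.1 times a floor of 3 counts over the d3 group. The 95% counting interval for the 33 pooled d5 counts against 0 begins at 8.55-fold. It covers counting error only and holds no spread between mice, and edgeR did not call Epyc here. From d5 to d7 no member was called, beside 0.0177% of all genes. At an unadjusted p under 0.05 there were 2 members (Omd and Epyc), and DESeq2 called none. Chondrocyte markers had moved from d3 to d5, with 11 of 12 higher and summed levels of 991 to 2159 CPM on d3 and 10737 to 19986 CPM on d5. Of the osteoblast and osteocyte markers 3 of 10 were higher, and the part of these tissues was not tested.

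**Figure D2:**
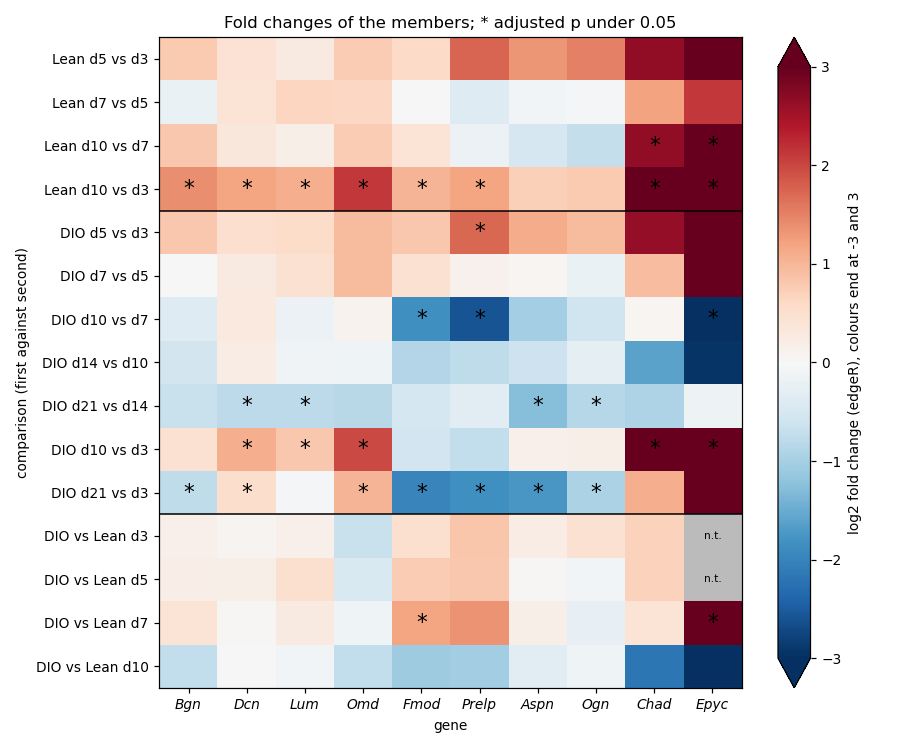
Log2 fold changes of the 10 members (columns) in 15 comparisons (rows), red for higher and blue for lower in the first group, with colours ending at -3 and 3, an asterisk for adjusted p under 0.05 and n.t. for not tested. On d10 against d7 in DIO mice Fmod, Prelp and Epyc were lower, whereas Chad and Epyc were higher in lean mice.

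From d7 to d10 in DIO mice Fmod, Prelp and Epyc fell, while the values of Dcn, Lum, Omd and Chad overlapped between these days. These 3 members called lower stand beside 13% of all genes called and 7.01% called lower. The median log2 fold change was -0.48 over the 10 members and -0.021 over all genes tested. Fmod measured 1883, 1994 and 2779 CPM on d7 and 568, 693 and 591 CPM on d10, so that each d10 callus held less than any d7 callus. Its level on d10 was 0.278 of that on d7 (log2 -1.85 ± 0.41, edgeR adjusted p = 0.00612). Prelp, its neighbour on chromosome 1, measured 415, 367 and 575 CPM on d7 and 65, 89.9 and 70.6 CPM on d10. Its d10 level was 0.166 of that on d7 (log2 -2.59 ± 0.35, edgeR adjusted p = 0.000109). Both calls held with each of the 18 DIO mice left out. Epyc fell from 226, 87 and 138 counts to 3, 27 and 19 counts (ratio 0.117, counting interval 0.0853 to 0.157, edgeR adjusted p = 0.0201). The call of Epyc was lost under DESeq2 and without DIO d7 mouse 1, d10 mouse 1 or d10 mouse 3, with an adjusted p of up to 0.0738 over the mice left out.

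Dcn was not called in this step: it measured 612, 738 and 437 CPM on DIO d7 and 626, 718 and 861 CPM on d10, with overlapping groups (edgeR adjusted p = 0.352). Lum (adjusted p = 0.668), Omd (0.868) and Chad (0.974) also overlapped between the 2 days under the same edgeR test. Aspn, which competes with Dcn for collagen, and Ogn lay between these patterns, with every d10 callus below every d7 callus but edgeR adjusted p of 0.0695 and 0.186. Aspn was called lower by DESeq2 and without the filter on low counts. Bgn was also lower in every d10 callus (3984 to 4549 CPM on d7 and 2891 to 3523 CPM on d10) but was not called by edgeR. In all 6 members were lower in every d10 callus, as were 13.6% of all genes. Markers of cartilage fell in the same step, with 11 of 12 chondrocyte markers lower and summed levels of 21956 to 49725 CPM on d7 and 4560 to 9593 CPM on d10. Osteoblast and osteocyte markers rose (7 of 10), and the summed muscle markers went from 7974 to 22834 CPM up to 23020 to 31367 CPM with no muscle marker called. Adipocyte markers rose (3 of 5), and the summed tendon and fibrous markers went from 604 to 1131 CPM down to 451 to 572 CPM with 1 of 8 called. The part of these tissues in the falls of Fmod and Prelp was not tested.

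From d10 to d14 in DIO mice no member was called, beside 0.759% of all genes. At an unadjusted p under 0.05 there were 5 members, and DESeq2 called none. From d14 to d21 Dcn, Lum, Aspn and Ogn fell, beside 19.6% of all genes called and 9.03% called lower. Dcn measured 922, 775 and 887 CPM on d14 and 432, 513 and 550 CPM on d21, with no overlap (0.578 of the d14 level, log2 -0.79 ± 0.20, edgeR adjusted p = 0.0112). Aspn fell most, from 64.4, 76.9 and 47.7 CPM to 11.6, 35.8 and 31 CPM. Its d21 level was 0.415 of that on d14 (log2 -1.27 ± 0.37, edgeR adjusted p = 0.0236). By the same edgeR test Lum fell to 0.577 (adjusted p = 0.0201) and Ogn to 0.553 (adjusted p = 0.042) of the d14 levels. Without DIO d21 mouse 1 none of these 4 was called, with edgeR adjusted p of 0.0616 for Dcn, 0.091 for Lum, 0.098 for Aspn and 0.173 for Ogn. Ogn was still called in 9 of the 18 fits with a mouse left out. Erythroid markers rose in the same step (5 of 6 called, 3767 to 12193 CPM on d14 and 25217 to 36065 CPM on d21), as did 3 of 10 leukocyte markers with 1 lower, while 4 of 8 tendon and fibrous, 3 of 4 hypertrophic chondrocyte and 3 of 10 osteoblast and osteocyte markers fell. Their part was not tested.

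Set against d3, the DIO callus of d10 held more Dcn, Lum, Omd, Epyc and Chad, beside 21.8% of all genes called and 11.1% called higher. Omd measured 7.69, 11.3 and 11.3 CPM on DIO d3 and 32.5, 44.6 and 43.6 CPM on d10, a 3.98-fold rise without overlap (log2 1.99 ± 0.30, edgeR adjusted p = 0.000214). By the same edgeR test Dcn rose 2.13-fold (log2 1.09 ± 0.20, adjusted p = 0.00101), Lum 1.76-fold (log2 0.82 ± 0.22, adjusted p = 0.0142) and Chad 12.3-fold (log2 3.62 ± 0.79, adjusted p = 0.00379). Epyc had 0 counts on d3 and 49 counts over the 3 calli of d10, which is 22.8 times the floor of 3 counts over the group. The 95% counting interval for these pooled counts begins at 17.9-fold and holds no spread between mice. The call of Lum was lost without DIO d3 mouse 1 or d10 mouse 3, with an edgeR adjusted p of up to 0.0723, while the others held with each of the 18 mice left out. Markers of several tissues moved over the same span without overlap in their sums. Chondrocyte markers (9 of 12 higher) went from 991 to 2159 CPM up to 4560 to 9593 CPM, hypertrophic chondrocyte markers (2 of 4 higher) from 676 to 1356 CPM up to 2539 to 3671 CPM, and osteoblast and osteocyte markers (6 of 10 higher) from 2153 to 6063 CPM up to 9584 to 11335 CPM. All 6 erythroid markers were also higher. Their part was not tested.

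By d21 members of the DIO callus lay on both sides of their d3 levels. Lum, Epyc and Chad, higher on d10, were no longer called against d3. Dcn and Omd were higher, and Bgn, Aspn, Ogn, Fmod and Prelp were lower, beside 45.3% of all genes called, 23.5% called higher and 21.8% called lower. Fmod measured 723, 877 and 1175 CPM on d3 and 80.8, 461 and 162 CPM on d21, with mouse 2 well above the other two d21 mice. Its d21 level was 0.254 of that on d3 (log2 -1.98 ± 0.42, edgeR adjusted p = 0.000979). Prelp, likewise highest in d21 mouse 2 (13.8, 58.3 and 32.7 CPM), came to 0.279 of its d3 level (log2 -1.84 ± 0.34, edgeR adjusted p = 0.000369). Without this mouse the log2 fold changes were -2.95 for Fmod and -2.45 for Prelp.

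Aspn came to 0.3 of its d3 level (edgeR adjusted p = 0.00108), Ogn to 0.518 (adjusted p = 0.011) and Bgn to 0.586 (adjusted p = 0.017). Omd, by contrast, was still 2.03-fold above d3 (log2 1.02 ± 0.29, edgeR adjusted p = 0.00886), and Dcn 1.44-fold (log2 0.53 ± 0.20, adjusted p = 0.036). The call of Dcn was lost in 7 of the 18 fits with a mouse left out, and also without the filter on low counts and with all 30 libraries in 1 fit. Bgn and Ogn were lost without DIO d21 mouse 1, Bgn and Omd without d21 mouse 3 and Omd without d3 mouse 1, and without d21 mouse 3 there were 4 calls in place of 7. Markers of most tissues moved over the same span. The 8 tendon and fibrous markers summed to 476 to 974 CPM on d3 and 210 to 403 CPM on d21 (5 lower and 1 higher), and the 10 leukocyte markers to 4152 to 6064 CPM and 9469 to 21577 CPM (5 higher), both without overlap. Of the others, 6 of 10 osteoblast and osteocyte markers were higher on d21 and 3 lower, 6 of 6 erythroid and 5 of 5 adipocyte markers were higher, and 4 of 12 chondrocyte (with 1 higher), 3 of 5 endothelial and 3 of 10 muscle markers were lower. Their part was not tested.

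Ratios within a library do not depend on how libraries are scaled, and they changed over the days in DIO mice. The ratio of Fmod to Lum counts in DIO calli was 2.86 to 3.41 on d3, 3.29 to 4.33 on d5 and 2.71 to 6.9 on d7. It then lay between 1 and 1.45 on d10 and between 0.668 and 0.779 on d14, so that every DIO callus of these days lay below every DIO callus of d3, d5 and d7. On d21 it was 0.332, 1.6 and 0.557, again with mouse 2 apart. In lean calli it lay between 2.03 and 3.66 on d3, and on d10 it was 4.79, 1.97 and 1.24, with mouse 1 highest.

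Bgn against Dcn and Aspn against Dcn were also lower in every d10 callus than in every d7 callus of DIO mice, and lower again on d14. Bgn counts were 6.55 to 7.1 times those of Dcn on DIO d3, 5.4 to 10.4 times on d7, 3.36 to 5.36 times on d10, 2.03 to 3.26 times on d14 and 2.17 to 3.84 times on d21. Aspn counts were 0.297 to 0.46 of those of Dcn on DIO d5, 0.268 to 0.393 on d7, 0.118 to 0.146 on d10, 0.0538 to 0.0992 on d14 and 0.0269 to 0.0698 on d21. In lean calli Aspn against Dcn fell likewise, from 0.219 to 0.421 on d7 down to 0.152 to 0.189 on d10, without overlap. Bgn against Dcn overlapped between these lean days, at 4.26 to 6.98 on d7 and 4.38 to 13.3 on d10. Bgn nevertheless remained the bulk of member counts, with 47.4% to 61.7% in each of the 30 libraries. These ratios are of raw counts and not per length, and they are given as a description.

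**Figure D3:**
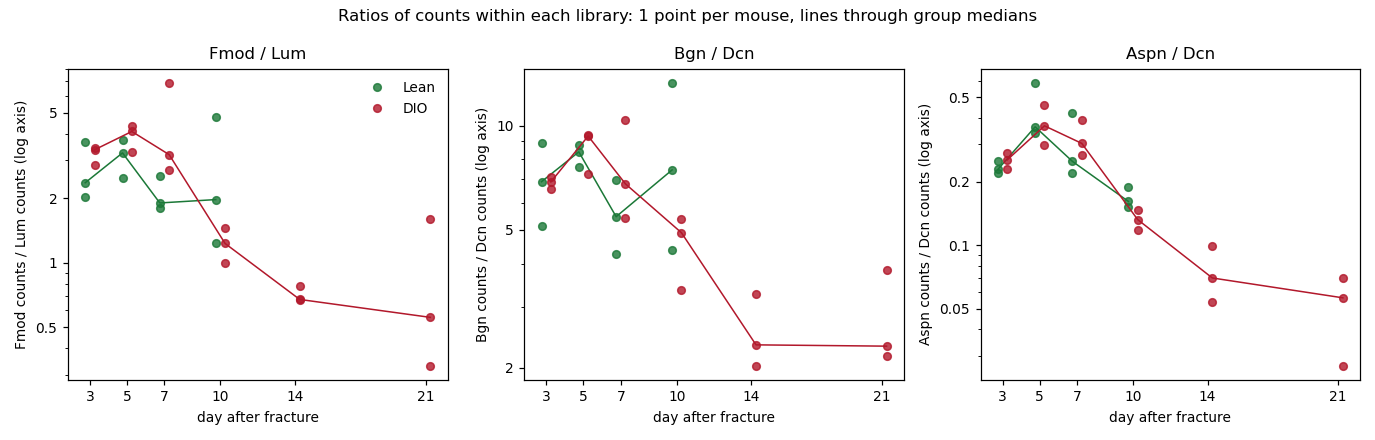
Ratios of counts of Fmod to Lum, Bgn to Dcn and Aspn to Dcn (log axes) by day after fracture, 1 point per library, green for lean and red for DIO, with lines through the medians. In DIO mice the ratio of Fmod to Lum is at least 2.71 in every library up to d7 and at most 1.45 on d10.

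Between diets, edgeR called members on d7 alone among the 4 days. On d7 Fmod and Epyc were higher in DIO calli, beside 2.32% of all genes called and 1.4% called higher. Fmod measured 970, 888 and 1084 CPM in lean and 1883, 1994 and 2779 CPM in DIO mice, so that the groups did not overlap. The difference was 2.28-fold (log2 1.19, 95% interval 0.69 to 1.69, edgeR adjusted p = 0.0293). Epyc had 14, 5 and 22 counts in lean and 226, 87 and 138 counts in DIO d7 calli (ratio 12.7, counting interval 9.23 to 18, edgeR adjusted p = 0.0138). Without lean d7 mouse 1 neither was called (adjusted p up to 0.177 for Fmod and 0.0591 for Epyc), and Fmod was also lost without lean d7 mouse 2 or 3 and with all 30 libraries in 1 fit (edgeR adjusted p = 0.0961).

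Prelp measured 126, 128 and 282 CPM in lean and 415, 367 and 575 CPM in DIO d7 calli, and Bgn was also higher in every DIO callus. Together with Fmod and Epyc these are the 4 members without overlap on d7, as were 10.2% of all genes in this direction. Prelp missed the threshold (log2 1.35, 95% interval 0.61 to 2.08, edgeR adjusted p = 0.072) but was called by DESeq2 and with the replicate block. Dcn, Lum, Omd, Ogn, Aspn and Chad overlapped between diets. Of the 12 chondrocyte markers 4 were higher in DIO mice on this day, with sums of 6646 to 19430 CPM in lean and 21956 to 49725 CPM in DIO calli, while 3 of 10 leukocyte and 3 of 10 osteoblast and osteocyte markers were lower. Their part was not tested.

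On d10 the values lay the other way, without a call. In 6 members (Bgn, Fmod, Omd, Prelp, Epyc and Chad) every DIO callus lay below every lean callus, as in 7.31% of all genes, but none was called by edgeR (adjusted p = 0.686 for each of the 6), nor was any of the 15341 genes tested. At an unadjusted p under 0.05 there were these 6 members and 1082 genes, and DESeq2 called Epyc. Chad measured 1971, 582 and 500 CPM in lean and 202, 306 and 168 CPM in DIO mice (log2 difference -2.16, 95% interval -3.34 to -0.98). Without lean d10 mouse 1 the difference of Chad was -1.26.

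The difference of Omd moved little without that mouse: it measured 75.6, 67.2 and 62.4 CPM in lean and 32.5, 44.6 and 43.6 CPM in DIO d10 calli (log2 -0.75, 95% interval -1.14 to -0.36, and -0.69 without lean d10 mouse 1). Fmod (log2 -1.06) and Prelp (log2 -1.04) rested more on that mouse, at -0.54 and -0.52 without it, and Bgn moved from -0.75 to -0.46. Dcn measured 573, 591 and 1039 CPM in lean and 626, 718 and 861 CPM in DIO mice, and Lum, Aspn and Ogn also overlapped. Summed chondrocyte markers were 15263 to 81843 CPM in lean and 4560 to 9593 CPM in DIO calli with none of the 12 called, and muscle markers 1255 to 18318 and 23020 to 31367 CPM. Their part was not tested.

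**Figure D4:**
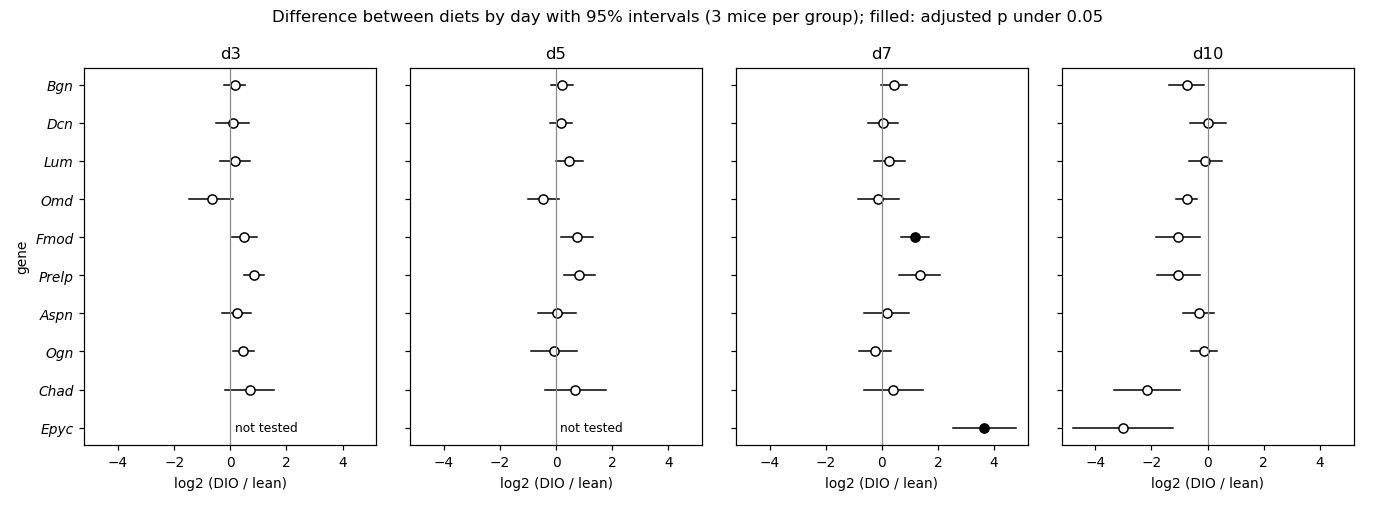
Log2 ratio of DIO to lean (horizontal axis) with 95% intervals for each member on d3, d5, d7 and d10 (panels), filled points for adjusted p under 0.05, n = 3 mice per diet and day. Fmod lies at 1.19 on d7 and at -1.06 on d10, and Prelp at 1.35 and -1.04.

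The diets were also compared on the early days. On d3 none of 9 members tested was called by edgeR, and none of the 15772 genes was. At an unadjusted p under 0.05 there were 3 members, the same 3 (Fmod, Ogn and Prelp) that were higher in every DIO callus, as were 8.84% of all genes, and DESeq2 called Prelp. Prelp measured 60.6, 66.3 and 85.2 CPM in lean and 134, 111 and 130 CPM in DIO d3 calli (edgeR adjusted p = 0.0944). On d5 none of 9 members was called by edgeR, beside 1.08% of all genes. Fmod and Prelp passed an unadjusted p of 0.05, were called by DESeq2 and were higher in every DIO callus, as were 10.9% of all genes. Epyc had too few counts to be tested on d3 and d5. Summed leukocyte markers were lower in every DIO callus on both days, at 10922 to 20477 CPM in lean and 4152 to 6064 CPM in DIO mice on d3 (none of 10 called) and at 5721 to 11961 and 3034 to 4378 CPM on d5 (4 of 10 called lower). Their part was not tested.

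Whether the diet difference changed between days was tested over the 24 calli of d3 to d10. The change (interaction of diet and day, 3 degrees of freedom) was called for Fmod (edgeR adjusted p = 0.0272), Epyc (0.0277) and Prelp (0.0334), beside 1.65% of all genes, and missed for Bgn (0.0666) and Chad (0.112). None of these 3 was called without lean d7 mouse 1 or 2, lean d10 mouse 1 or any of the 3 DIO d10 mice, and with all 30 libraries in 1 fit Epyc alone was called. A regression on a curve of degree 2 in time called the same 3 members for diet (Epyc 0.00643, Fmod 0.00882, Prelp 0.0153), beside 8.13% of all genes, and these calls held with each of the 24 mice left out.

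The step from d7 to d10 was then compared between diets, a comparison added after the values were seen. The diet difference fell in 4 members, Bgn, Fmod, Prelp and Epyc, beside 5.07% of all genes called and 3.37% called lower. For Fmod the log2 ratio of DIO to lean fell by 2.25 (95% interval -3.09 to -1.40, edgeR adjusted p = 0.00438), and for Prelp by 2.40 (-3.37 to -1.43, adjusted p = 0.00676). Bgn fell by 1.17 (-1.74 to -0.61, edgeR adjusted p = 0.0162), and Epyc passed at an adjusted p of 0.00369. Without lean d10 mouse 1 the values were -1.71 for Fmod (adjusted p = 0.00978), -1.86 for Prelp (0.0233) and -0.87 for Bgn (0.0537, no longer called), and Epyc was still called (0.0118). Bgn was also lost without lean d7 mouse 2, at an adjusted p of up to 0.0576. Of the 12 chondrocyte markers 10 moved the same way in this test, and their part was not tested.

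The members closest in pattern over the 10 group means were 2 pairs that are also close in the genome. After each gene's log2 CPM means were centred and divided by their SD over the groups, the root mean square difference (in SD units) was smallest between Aspn and Ogn (0.301) and between Fmod and Prelp (0.315), followed by Aspn and Fmod (0.418). Omd, which lies between Aspn and Ogn on chromosome 13, was further from both (1.21 and 1.16). Among the 14807 genes with a mean of at least 1 CPM, the closest to Fmod were Sox9 (0.0923), the transcription factor of chondrocytes, and Igfbp3 (0.144). Those closest to Prelp were Capn6 (0.168) and Spats2l (0.176), and those closest to Chad were Fbln7 (0.129) and Emilin3 (0.144).

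The other members had other neighbours in pattern. Aspn lay closest to the matrix glycoproteins Mfap4 (0.16) and Thbs2 (0.188), and Ogn to the growth factor Igf2 (0.153) and to Zc3h12b (0.236). Bgn lay closest to Fam83h (0.168) and Yipf3 (0.195), Lum to Phtf2 (0.154) and Cd200 (0.271), Omd to Ramp3 (0.215) and Flywch2 (0.233), Epyc to Ptp4a1 (0.238) and Crispld1 (0.242), and Dcn to 2610008E11Rik (0.256) and Parn (0.259). Over the 30 single libraries 4 of these 20 genes were again among the 2 closest (both genes of Chad, Igf2 for Ogn and Crispld1 for Epyc).

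Collagens that SLRPs bind were called in the same comparisons. Of 14 fibril collagens and partners, 6 rose from d3 to d10 in lean mice, beside 15.2% of all genes called higher, led by Col2a1 (log2 7.36 ± 1.06) and Col11a2 (2.38 ± 0.46) of cartilage fibrils. From d7 to d10 in DIO mice 9 of 14 fell, beside 7.01% of all genes called lower, led by the collagen VI chains Col6a1 (log2 -1.87 ± 0.33, edgeR adjusted p = 0.000934), Col6a2 (-1.84 ± 0.35) and Col6a3 (-1.16 ± 0.22). The median log2 fold change of the 14 was 0.69 in the lean and -1.13 in the DIO comparison. These cover unlike spans, d3 to d10 and d7 to d10, so they do not contrast the diets. From d3 to d10 Col11a2 also rose in DIO mice (1.86 ± 0.31). In the DIO step from d7 to d10 Fmod (-1.85) and Prelp (-2.59) fell as well.

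The lists of enzymes that build or cut the members held calls in both directions. They are given for d10 against d3 in lean and d10 against d7 in DIO mice, unlike spans that do not contrast the diets. Of 23 enzymes of chondroitin and dermatan sulfate chains, 12 fell and 2 rose from d7 to d10 in DIO mice, beside 13% of all genes called, led by Csgalnact1, which starts the chain's repeats (log2 -2.80 ± 0.21, edgeR adjusted p = 4.37e-07), and Xylt1, which attaches the first sugar (-1.98 ± 0.30). In lean mice 4 rose and 1 fell from d3 to d10, beside 29.3% of all genes called, and the medians of the 23 were -0.60 in the DIO and 0.08 in the lean comparison. Of 6 keratan sulfate enzymes tested, 2 rose and 1 fell in lean mice, beside 29.3% of all genes called. In DIO mice 1 rose and 1 fell, beside 13% of all genes called. The sulfotransferase Chst5 rose in both of these comparisons (log2 2.22 ± 0.46 in lean and 2.06 ± 0.52 in DIO mice), Chst1 rose in lean mice (1.97 ± 0.42), and the galactosyltransferase B4galt1 fell in both (-0.53 ± 0.15 and -0.52 ± 0.16). Of 4 propeptide proteases and enhancers tested, 3 rose in lean mice from d3 to d10 (Pcolce2 3.58 ± 0.64), beside 15.2% of all genes called higher. In DIO mice 2 fell from d7 to d10 (Tll1 -2.07 ± 0.54 and Pcolce2 -1.20 ± 0.35), beside 7.01% of all genes called lower. From d3 to d10 Pcolce2 rose in DIO mice too (1.51 ± 0.35). Of 8 proteases known to cut SLRPs, 4 rose and 2 fell in lean mice, beside 29.3% of all genes called. In DIO mice 2 rose and 1 fell, beside 13% of all genes called. The gelatinase Mmp9 and the collagenase Mmp13 rose in both comparisons (Mmp9 3.05 ± 0.23 in lean and 2.63 ± 0.30 in DIO mice), and Adamts1 fell in the DIO step (-1.04 ± 0.29, edgeR adjusted p = 0.0224).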

How the data were processed

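Poly(A) RNA of 30 calli was sequenced with a stranded kit, and per the labels the authors aligned reads to GRCm38 with HISAT2 2.1.0 and deposited raw HTSeq counts per gene; the strand setting and annotation version are not given in the sources used here. Depth ran from 13247122 to 26365620 counts per library, and depth sets the precision for Epyc above all. The members and lists were chosen with earlier results of these data known.

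Counts of all 43629 genes were fitted with edgeR 4.0.16 in R 4.3.3 (TMM factors, filterByExpr, quasi-likelihood F-test, Benjamini-Hochberg over all genes tested, threshold 0.05). Fits used the 12 lean libraries, the 18 DIO libraries, the 6 libraries of a day for diets, and the 24 libraries of d3 to d10 for interactions. All 10 members were named, with at most 3 called genes per context list and comparison by smallest adjusted p, and the 2 genes most alike each member. CPM used TMM factors over the 30 libraries, and RPKM used exon-union lengths from GENCODE M21. Counting intervals (95%) and the floor of 3 counts cover counting error only. The code was checked on simulated counts, drawn with edgeR's own estimates of spread, in which 200 genes were altered. Of the genes called there, 3.45% to 8.2% were false by edgeR and 8.33% to 29.2% by DESeq2, depending on the comparison. That setting may favour edgeR, and the shares need not hold for the real comparisons. DESeq2 calls beside a missed edgeR test are given with this caution. Alternatives were RLE scaling, DESeq2 1.42.0, no filter, a replicate block, all 30 libraries in 1 fit and each library left out. Replicates differed by more than sampling noise in all 30 pairs. Replicate numbers name different mice, and deviations of same-numbered calli correlated above 0.1 in every pair only between lean d5 and d7 (lowest 0.204).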

Additional observations from a re-analysis of the deposited data

Results flagged for a closer look

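The diet difference of Fmod (edgeR adjusted p = 0.0272), Prelp (0.0334) and Epyc (0.0277) differed between days d3 to d10 in the test of diet by day. In the comparison of the step from d7 to d10, added after the values were seen, the diet difference changed for Bgn (edgeR adjusted p = 0.0162), Fmod (0.00438), Prelp (0.00676) and Epyc (0.00369). The lean d10 calli behind these values differ among themselves in chondrocyte markers, at 81843, 18542 and 15263 CPM, and without the first of them Bgn was no longer called (0.0537).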

How the results depend on the processing

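No fold change among the 41 checked changed sign in 823 alternative values. These 41 were chosen for print from the same data, so a change of sign was unlikely from the start. Of the 823 values, 733 kept their side of the threshold, 80 lost it and 10 gained it. Of 100 counts of called members under alternatives other than leaving out a library, 83 stayed within 1.5 times, and the rest follow. Without the filter on low counts the count was 3 for lean d5 against d3, 5 for DIO d5 against d3, 1 for DIO d7 against d5, and 1 each for diet on d3 and d10. DESeq2 called 5 for lean and 5 for DIO d5 against d3, 1 for diet on d3, 2 on d5 and 1 on d10, and 5 each for the change of the diet difference and the time course. With all 30 libraries in 1 fit the counts were 2 for lean d5 against d3, 1 for diet on d7 and 1 for the change of the diet difference. The cause was not tested. With the replicate block 2 members (Ogn and Aspn) were called for lean d5 against d3 and 1 (Prelp) for diet on d3, and the other counts stayed within 1.5 times; pairing by number is not given by the labels.

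With each library left out, counts ranged from 4 to 8 (lean, any day), 0 to 3 (lean d5 against d3), 0 to 2 (d10 against d7), 4 to 9 (d10 against d3), 0 to 3 (DIO d5 against d3), 0 to 1 (d7 against d5), 2 to 4 (d10 against d7), 0 to 8 (d21 against d14), 4 to 6 (d10 against d3), 4 to 7 (d21 against d3), 0 to 1, 0 to 3 and 0 to 2 (diet on d3, d5 and d7), 0 to 4 (change of the diet difference), 3 to 5 (d10 minus d7) and 3 to 5 (time course). The others did not move. Depth limits Epyc, with 0 to 307 counts per library.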

Other observations

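Other genes of the SLRP family were measured in the same calli. Of 8 tested, 3 rose and 1 fell from d3 to d10 in lean mice, beside 29.3% of all genes called. Of 7 tested, 1 rose and 2 fell from d7 to d10 in DIO mice, beside 13% of all genes called. The 2 spans are unlike and do not contrast the diets. Podnl1, a class V family gene, rose from d3 to d10 in lean mice (53.1 ± 9.39 to 267 ± 69.3 CPM, SD, n = 3, log2 2.37 ± 0.23 SE, edgeR adjusted p = 9.72e-05) and from d7 to d10 in DIO mice (75.1 ± 13.1 to 209 ± 5.63 CPM, log2 1.47 ± 0.26, adjusted p = 0.000972). Fmod, Prelp and Epyc fell in that DIO step. Chadl, the relative of Chad, rose in lean mice (log2 6.19 ± 0.90, edgeR adjusted p = 0.000836), with 147, 37.7 and 16.3 CPM in lean d10 mice 1, 2 and 3. It fell from d7 to d10 in DIO mice (log2 -1.67 ± 0.47, edgeR adjusted p = 0.0238). The values of these DIO days overlapped, at 13.1 to 41.4 CPM on d7 and 5.83 to 13.6 CPM on d10. From d3 to d10 Chadl rose in DIO mice too (log2 2.24 ± 0.50, edgeR adjusted p = 0.00481). Exons of L3mbtl2 on the opposite strand cover 19.5% of those of Chadl. Ecm2, next to Aspn on chromosome 13, rose in lean mice (log2 1.44 ± 0.24, edgeR adjusted p = 0.00154). Podn, podocan, fell in both comparisons (log2 -0.88 ± 0.26, edgeR adjusted p = 0.0256 in lean mice, and -1.06 ± 0.34, adjusted p = 0.0458 in DIO mice).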
